A study of Mus musculus with 12 samples.

Results

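The genes described here encode the presynaptic vesicle and release machinery: 34 genes taken by symbol from a given list, out of 24384 genes in the count table. All 34 were found, and all 34 were among the 16618 genes with enough counts to be tested. They were followed in 12 libraries of polyadenylated RNA from mouse hippocampus, in 3 groups of 4. The first group was rTg4510 mice given 3TC (lamivudine, a nucleoside drug that blocks reverse transcriptase), the second rTg4510 mice without it, and the third littermate controls. In the rTg4510 line a mutant human tau transgene is switched on by a tetracycline-controlled activator under the Camk2a promoter, so it acts mainly in excitatory forebrain neurons. Whether the littermates carried the activator or the silent transgene is not given in the sources used here, nor are age, strain, dose and length of treatment. Each group holds 2 libraries labelled female and 2 labelled male, and a library is named here by its group and its sex and number. Where all values of a gene are listed, they stand in the order F2, F3, M2, M3 for rTg4510+3TC, F2, F3, M1, M3 for rTg4510 and F1, F3, M2, M3 for littermates. The labels do not say that every library came from its own animal, and p-values reflect the spread among these libraries, which may be technical.

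A nerve terminal releases transmitter when a vesicle, filled by a transporter in its membrane, docks at the active zone and fuses. Fusion is driven by SNARE proteins, which sit on the vesicle (synaptobrevins, genes Vamp1 and Vamp2) and on the plasma membrane (Snap25 and syntaxin, Stx1a). Synaptotagmins sense the calcium that triggers it, complexins clamp and assist the SNARE complex, and active zone scaffolds such as RIM, Munc13, bassoon and piccolo hold release sites and ready vesicles. Loss of synapses accompanies tau pathology in the hippocampus, and terminals there are mostly those of glutamatergic pyramidal and granule neurons.

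Library totals were 27351630 to 35357415 counts in rTg4510+3TC, 29732904 to 36112922 in rTg4510 and 27286787 to 58173678 in littermates. Levels are given as CPM, counts scaled to a fixed library total after normalisation, and between genes as RPKM, CPM per kilobase of annotated exon. Members' counts were far above the limit of counting, the lowest being 250 counts of Syt2 in rTg4510 M1. Sex-linked counts went against the labelled sex in littermates F3 and M3, which appear crossed. Markers of neighbouring brain regions stood furthest apart in 3 libraries, and those of the choroid plexus in another 3. In rTg4510+3TC F2, thalamic neuron markers summed to 814.5 CPM, against 124.7 to 344.8 CPM in the other 11 libraries, with the defining transcription factor Tcf7l2 at 161.3 CPM, against 9.633 to 39.34 CPM. Littermate F1 was next in both, at 344.8 and 39.34 CPM, and the remaining libraries had 124.7 to 239.9 CPM and 9.633 to 15.27 CPM. Neocortical neuron markers summed to 954.8 CPM in rTg4510 F3 and 700.8 CPM in littermate M2, against 319.5 to 503.2 CPM in the other 10. Of this list Lamp5, Rasgrf2 and Cux2 were above the other 10 in both libraries. Fezf2 was not, at 36.45 CPM in rTg4510 F3 and 45.41 CPM in littermate M2, against 30.89 to 66.5 CPM. In littermate M2, Tbr1 at 165.3 CPM and Rorb at 52.87 CPM also lay within the range of the other 10. Striatal markers were also highest in rTg4510 F3, at 489.3 CPM, against 181.4 to 320.7 CPM in the other 11, and oligodendrocyte markers summed to 2708 CPM there and 10330 CPM in littermate M2, against 5310 to 7058 CPM in the other 10. After rTg4510 F3, striatal markers were highest in littermate F1 and rTg4510 M1, at 320.7 and 305.6 CPM, and the remaining libraries had 181.4 to 225.9 CPM. No marker of these lists was at 0 in any group. Choroid plexus markers summed to 4246 CPM in rTg4510 M1, 3680 CPM in littermate F1 and 2033 CPM in littermate F3, where no other library had more than 162 CPM. Leaving out these choroid-high libraries keeps only M2 and M3 of the littermates. In that fit 0 members were called in each comparison, but so were 0 of all 17048 tested genes, so this count says nothing particular to the members. The members' median log2 fold change was then -0.0797 between rTg4510+3TC and rTg4510 and 0.0819 between rTg4510 and littermates. It was 0.0326 between rTg4510+3TC and littermates and 0.0518 between both transgenic groups and littermates. Pan-neuronal markers summed to 3628 to 4170 CPM in rTg4510+3TC, 3699 to 3986 in rTg4510 and 3544 to 3723 in littermates. Below, "the 3 libraries", or the 3 with neighbouring-tissue markers, are rTg4510+3TC F2, rTg4510 F3 and littermate M2. Values without these 3 are given where they moved a described change by over 1.5 times. Such values still include littermate F1 and rTg4510 M1, so they are not free of neighbouring-tissue markers. The part of neighbouring tissue or choroid plexus in the results was not tested.

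Together the 34 genes made up 2% to 2.39% of each library's counts. Their summed level was 21590 ± 1440 CPM in rTg4510+3TC, 22110 ± 1930 in rTg4510 and 21780 ± 1160 in littermates (SD, n = 4 each). The ranges overlapped widely, at 19530 to 22830, 19890 to 24580 and 20980 to 23500 CPM. Without the 3 libraries named above they were 21830 to 22830 CPM in rTg4510+3TC, 19890 to 22170 CPM in rTg4510 and 21280 to 23500 CPM in littermates (n = 3 each). In bulk tissue, fewer nerve cells and less RNA per cell cannot be told apart.

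No presynaptic gene passed the test in any comparison (edgeR quasi-likelihood test, Benjamini-Hochberg adjustment over 16618 genes, threshold 0.05). Between rTg4510 and littermates 0 of 34 were called, beside 0.0301% of all tested genes. Between rTg4510+3TC and rTg4510 0 of 34 were called, beside 0% of all genes, and between rTg4510+3TC and littermates 0 of 34, beside 0.0481%. With both transgenic groups set against littermates it was again 0 of 34, beside 0.0481%. At an unadjusted p under 0.05 stood 2, 1, 3 and 5 members in these 4 comparisons, or 5.88%, 2.94%, 8.82% and 14.7% of the list, against 5.24%, 3.82%, 8.59% and 8% of all tested genes. DESeq2 and limma-voom with quality weights also called 0 members in each. The intervals were narrow for most of the list: the 95% interval of the log2 fold change lay within -0.5 to 0.5 for 24 of 34 members between rTg4510 and littermates, for 25 between rTg4510+3TC and rTg4510, and for 22 between rTg4510+3TC and littermates. Within -1 to 1 lay 32, 31 and 31. Those outside were Syt2 and Vamp1 in each comparison and Stx1a in both that involve 3TC.

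**Figure D1:**
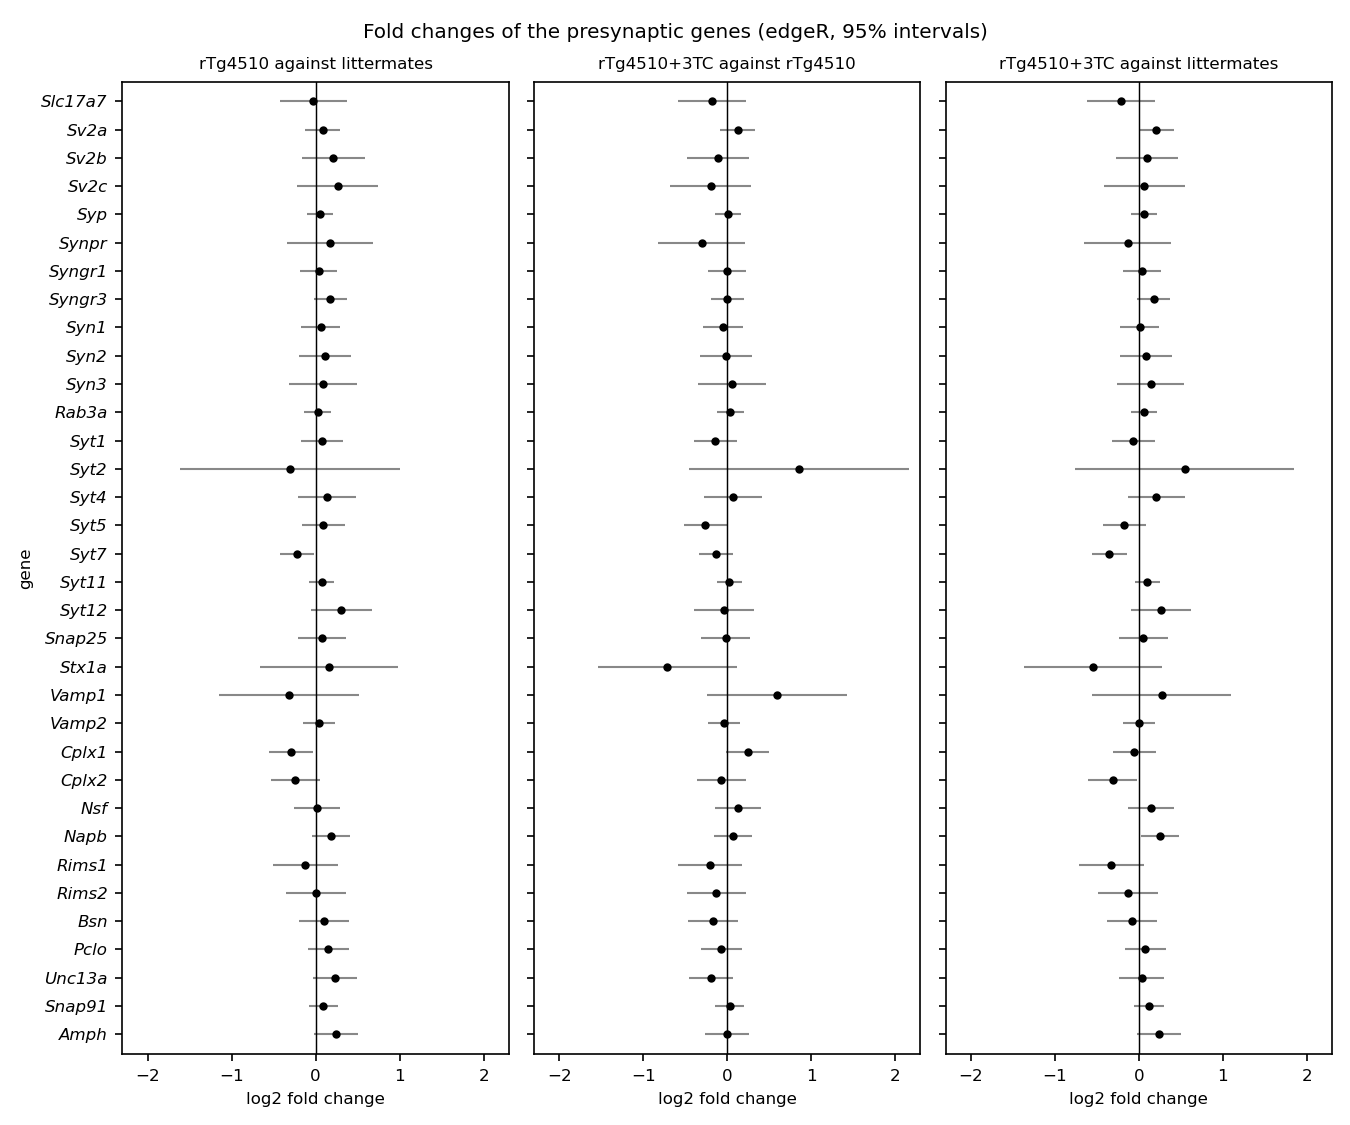
Log2 fold change (x axis) of each presynaptic gene (y axis, ordered by role) in 3 comparisons, with points for the edgeR estimate and lines for the 95% interval. No gene was called, and the lines of Syt2, Vamp1 and Stx1a are the widest.

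In the comparisons with littermates most members had small positive log2 fold changes. Where rTg4510 without 3TC was among the groups, the split depended most on which libraries were kept. Between rTg4510 and littermates 27 of 34 members had log2 fold changes above 0 and the median was 0.0793, where 49.8% of all genes were positive with a median of -0.0014. Without rTg4510 F3 the split was 17 to 17 and the median -0.00173, and without all 3 libraries with neighbouring-tissue markers it was 16 positive to 18 negative with a median of -0.000861. Leaving out rTg4510 M1 moved the median the other way, to 0.119, with 27 positive and 7 negative. Between rTg4510+3TC and rTg4510 14 were positive and 20 negative, with a median of -0.0287, and without the 3 libraries 22 and 12, with a median of 0.042. Without rTg4510 F3 alone the median in this comparison was 0.0147, and without rTg4510 M1 alone it was -0.0828, with 9 positive and 25 negative. Between rTg4510+3TC and littermates 22 were positive, median 0.0613, and without the 3 libraries 23, median 0.021. With both transgenic groups against littermates 25 were positive, median 0.0597, which became 17 and 0.0038 without rTg4510 F3 and 21 and 0.0142 without the 3 libraries. These comparisons share groups, so their counts are not separate observations.

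Single libraries stood apart for Vamp1 and Syt2, which encode a vesicle SNARE and a calcium sensor, Slc17a7, a glutamate transporter, and Stx1a, a plasma membrane SNARE. The 250 bases before the starts of these 4 genes are shown, from RefSeq on GRCm38.p6 (the same assembly as mm10), each on the plus strand: Vamp1 chr6:125215331-125215580, Syt2 chr1:134646362-134646611, Slc17a7 chr7:45163671-45163920 and Stx1a chr5:135023232-135023481. Capitals mark matches, on either strand, to the GC box letters GGGCGG, the core TGACG of the cAMP response element, the TATA box TATAAA and the letters CAGCACC and GGACAG from the left and right side of the RE1 element, which the repressor REST binds in neuronal genes.
Vamp1: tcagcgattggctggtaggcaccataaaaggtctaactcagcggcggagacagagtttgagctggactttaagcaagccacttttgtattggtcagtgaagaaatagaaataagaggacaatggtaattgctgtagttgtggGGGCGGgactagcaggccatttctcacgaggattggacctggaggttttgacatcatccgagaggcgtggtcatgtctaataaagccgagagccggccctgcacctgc
Syt2: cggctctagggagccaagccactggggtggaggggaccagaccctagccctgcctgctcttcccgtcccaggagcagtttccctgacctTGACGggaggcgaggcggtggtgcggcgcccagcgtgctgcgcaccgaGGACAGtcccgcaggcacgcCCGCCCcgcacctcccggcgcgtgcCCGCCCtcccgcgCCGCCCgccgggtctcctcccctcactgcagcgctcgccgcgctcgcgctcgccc
Slc17a7: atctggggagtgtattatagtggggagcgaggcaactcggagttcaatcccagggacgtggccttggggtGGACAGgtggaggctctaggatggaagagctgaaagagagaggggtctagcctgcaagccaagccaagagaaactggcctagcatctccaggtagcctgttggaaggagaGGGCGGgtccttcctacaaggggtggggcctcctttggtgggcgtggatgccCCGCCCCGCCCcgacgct
Stx1a: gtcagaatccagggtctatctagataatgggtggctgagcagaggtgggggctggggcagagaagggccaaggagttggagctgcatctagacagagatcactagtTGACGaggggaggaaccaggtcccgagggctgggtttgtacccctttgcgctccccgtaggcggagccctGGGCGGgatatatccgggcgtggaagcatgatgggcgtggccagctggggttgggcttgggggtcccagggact
The window of Vamp1 held 1 GC box and none of the other motifs, at 50.4% G and C. That of Syt2 was the richest of the 4 in G and C, at 76.0%, with 3 GC boxes, 1 TGACG and 1 GGACAG. That of Slc17a7 held 3 GC boxes, of which 2 overlap, and 1 GGACAG, at 61.2%, and that of Stx1a held 1 GC box and 1 TGACG, at 62.0%. Windows were found for 25 of the 34 genes, and 18 of the 25 held a GC box, against 32.9% of 27025 RefSeq promoters of the same length. TGACG was in 5 of 25 (Syt2, Stx1a, Rab3a, Unc13a and Syn1; 17.9% of all promoters), GGACAG in 8 (18.7%), CAGCACC in 2 (Sv2c and Syn1; 5.7%) and TATAAA in 1 (Sv2b; 13.0%). A match of letters is a description of the window and not a bound site.

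A minor form of the vesicle SNARE and one of the calcium sensor were set apart by single libraries. Vamp1, synaptobrevin 1, prevails in brainstem and spinal cord, while Vamp2 serves most forebrain terminals. Vamp1 (chr6, 125215551 to 125245964, mm10) had 383.5, 116.2, 112.4 and 93.44 CPM in rTg4510+3TC, 120.8, 142.3, 103.3 and 102.1 CPM in rTg4510, and 125.8, 126.3, 219.6 and 113.3 CPM in littermates. The values above 200 CPM belong to rTg4510+3TC F2 and littermate M2, and the other 10 libraries of the 3 groups overlap. In littermate M2 thalamic markers summed to 141.4 CPM, inside the range of the libraries other than rTg4510+3TC F2. Syt2, a fast calcium sensor of hindbrain and some inhibitory terminals, had 80.19, 13.06, 13.72 and 11.73 CPM in rTg4510+3TC, 17.97, 25.05, 7.375 and 15.26 CPM in rTg4510, and 13.82, 20.81, 34.71 and 12 CPM in littermates. The highest and the next highest library were the same as for Vamp1. The log2 fold changes between rTg4510+3TC and rTg4510 were 0.59 ± 0.39 for Vamp1 and 0.855 ± 0.61 for Syt2 (SE; adjusted p = 1, edgeR), and without rTg4510+3TC F2 they were -0.126 and -0.355.

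Slc17a7 encodes VGLUT1, the vesicular glutamate transporter of cortical and hippocampal neurons, and in most thalamic neurons its place is taken by Slc17a6 (VGLUT2). Slc17a7 had 879.9, 1835, 1830 and 1724 CPM in rTg4510+3TC, 1848, 1949, 1534 and 1793 CPM in rTg4510, and 1740, 1826, 1630 and 2059 CPM in littermates. The library rTg4510+3TC F2 lay far below the rest, and without it the groups overlap throughout. In the same library Slc17a6, which is not one of the 34, stood at 206.3 CPM, against 6.164 to 38.78 CPM in the other 11. Stx1a, the syntaxin of the plasma membrane, had 81.56, 134.9, 145.1 and 167.8 CPM in rTg4510+3TC, 140.9, 416.4, 162.1 and 148.2 CPM in rTg4510, and 127.5, 140.9, 329.5 and 177.5 CPM in littermates. Its 2 high values belong to rTg4510 F3 and littermate M2, the libraries highest in neocortical markers, and its lowest to rTg4510+3TC F2. The log2 fold change of Stx1a between rTg4510+3TC and rTg4510 was -0.71 ± 0.38 (SE; adjusted p = 1, edgeR), and -0.0116 without the 3 libraries.

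**Figure D2:**
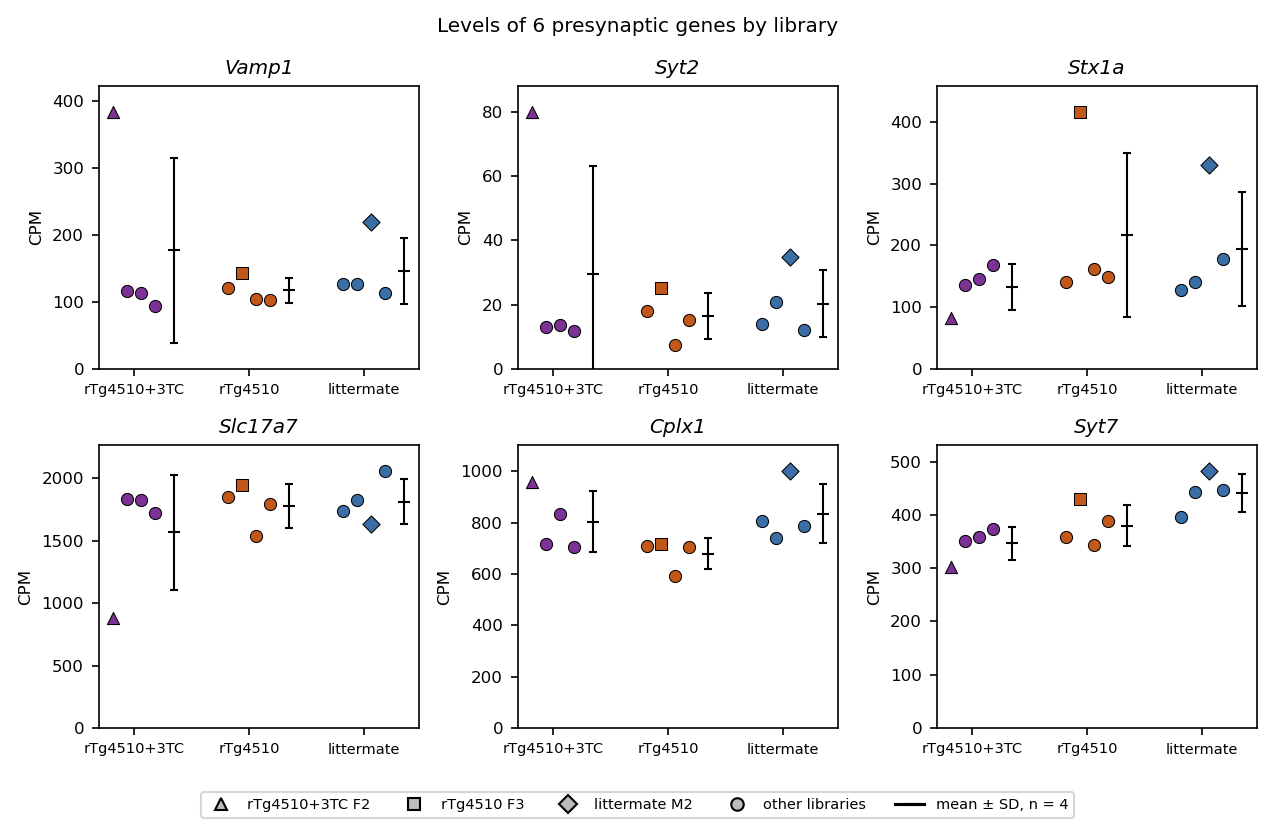
Level in CPM (y axis, from 0) of 6 presynaptic genes in each library, by group (x axis). Points are libraries, with rTg4510+3TC F2 as a triangle, rTg4510 F3 as a square and littermate M2 as a diamond, and bars beside them are the mean ± SD of 4 libraries (that of Syt2 in rTg4510+3TC is cut at 0). Vamp1 and Syt2 are high and Slc17a7 low in the triangle, and Stx1a is high in the square and the diamond.

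**Figure D3:**
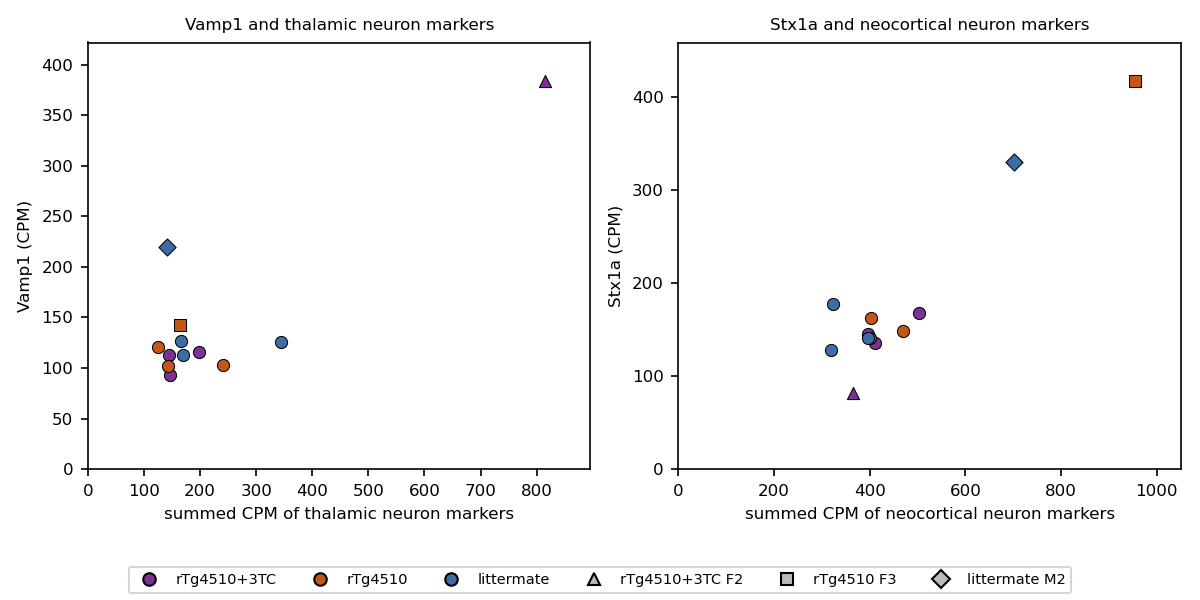
Left, Vamp1 (y axis, CPM) against the summed CPM of thalamic neuron markers (x axis), and right, Stx1a against the summed CPM of neocortical neuron markers, with a point for each of 12 libraries coloured by group. The triangle, rTg4510+3TC F2, is alone at the upper right on the left side, with 814.5 and 383.5 CPM. On the right side the square and the diamond, rTg4510 F3 and littermate M2, lie apart at 954.8 and 416.4 CPM and at 700.8 and 329.5 CPM.

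The same libraries held many of the extremes across the list, though not all. Each of 12 members had its lowest level in rTg4510+3TC F2 and 8 had it in littermate M2. As many as 14 had their highest in rTg4510 F3, where none was lowest. Outside these 3 libraries, rTg4510 M1 was lowest for 5 members and littermate M3 highest for 5. Averaged over the members, the log2 deviation was 0.222 in rTg4510 F3, -0.0442 in rTg4510+3TC F2 and 0.00827 in littermate M2. It was -0.115 in rTg4510 M1, a larger deviation than in rTg4510+3TC F2 or littermate M2. More than 0.5 log2 units below the mean of the 12 libraries, rTg4510+3TC F2 had Slc17a7, Synpr, Sv2b, Syt5, Stx1a, Cplx2, Rims1 and Bsn, and as far above it Vamp1, Syt2 and Syn3. In rTg4510 F3 the genes more than 0.5 above were Stx1a, Synpr, Syt4, Rims1 and Rims2, and none was as far below. In littermate M2 Vamp1, Syt2 and Stx1a were above and Synpr and Amph below. Over 12 libraries the ratio of a member's highest to its lowest level had a median of 1.69, from 1.18 for Syt11 to 10.9 for Syt2, and it was above 2 for 8 members. Without the 3 libraries the median ratio was 1.29, and Syt2 (2.82) and Sv2c (2.66) were the members above 2. For Stx1a the ratio was 5.11 with and 1.39 without them, and for Vamp1 4.1 and 1.35. Leaving out any libraries can only keep or lower such a ratio. No other set was left out for comparison, so the drop does not show that these libraries differ from the rest. The median within-group SD of log2 CPM was 0.1924 over the members and 0.1504 over the 8212 tested genes at or above 18.68 CPM, the mean of the lowest member.

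**Figure D4:**
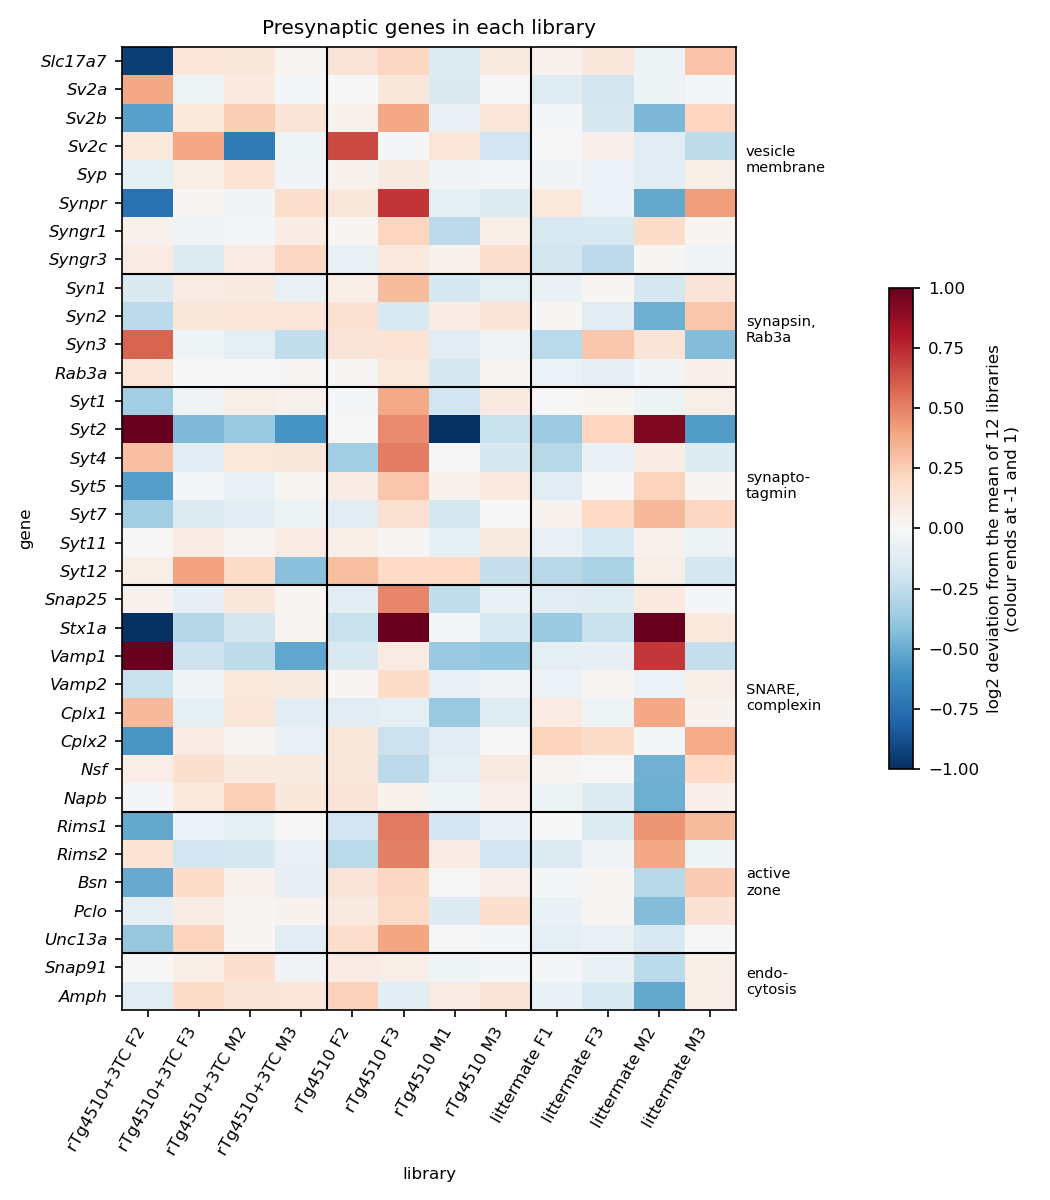
Log2 deviation of each of 34 presynaptic genes (rows, grouped by role) from its mean over 12 libraries (columns, by group), from blue (-1 or lower) to red (1 or higher). The column of rTg4510+3TC F2 is blue at Slc17a7, Synpr, Sv2b, Stx1a and others and red at Vamp1, Syt2 and Syn3, and that of rTg4510 F3 holds the highest level of 14 genes.

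Among calcium sensors, Syt7 came nearest to the threshold. Synaptotagmin 7 is a slow, high-affinity sensor of asynchronous release and facilitation. It had 303.1, 350.8, 359.3 and 373.9 CPM in rTg4510+3TC, 358.3, 429.2, 342.9 and 388.4 CPM in rTg4510, and 395.4, 443, 482.6 and 446.5 CPM in littermates. Every rTg4510+3TC library lay under every littermate, while rTg4510 overlapped with rTg4510+3TC through F2 at 358.3 CPM and M1 at 342.9 CPM, and with littermates through F3 at 429.2 CPM. Groups that do not overlap between rTg4510+3TC and littermates were found for 1 of 34 members (Syt7) and for 5.86% of all genes. The log2 fold change was -0.35 ± 0.09 (SE) between rTg4510+3TC and littermates (adjusted p = 0.336, edgeR, and 0.0685 to 0.942 over the other settings). It was -0.22 ± 0.09 between rTg4510 and littermates (adjusted p = 0.945, edgeR). With both transgenic groups together it was -0.28 ± 0.08 (adjusted p = 0.422, edgeR), and between rTg4510+3TC and rTg4510 -0.13 ± 0.09 (adjusted p = 1), which was -0.00782 without the 3 libraries. Without those 3, the change against littermates was -0.238 in rTg4510 and -0.246 in rTg4510+3TC. On 5.13% of its exon bases Syt7 overlaps a gene on the other strand.

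No other synaptotagmin came as near in the comparisons with littermates. Syt1, the main fast sensor of forebrain terminals, averaged 1430 ± 178 CPM in rTg4510+3TC, 1576 ± 264 in rTg4510 and 1496 ± 47.3 in littermates (SD, n = 4 each). Syt5 had 111.4, 162, 154.7 and 165.1 CPM in rTg4510+3TC and 171.3, 197.6, 167.7 and 174.9 CPM in rTg4510, and these 2 groups did not overlap. It was the member of the 34 with that property in this comparison, where 2.46% of all genes had it. Its log2 fold change was -0.26 ± 0.12 (SE; adjusted p = 1, edgeR), and -0.0935 without the 3 libraries, while littermates, at 151.7, 162.3, 190 and 164.9 CPM, overlapped with both groups. Syt12, a form that does not bind calcium, averaged 31.33 ± 7.17 CPM in rTg4510+3TC, 32.21 ± 4.93 CPM in rTg4510 and 26.06 ± 3.22 CPM in littermates, with a log2 fold change of 0.29 ± 0.15 (SE) for both transgenic groups against littermates (adjusted p = 0.676, edgeR). Of its exon bases 17.2% are shared with a gene on the other strand. Syt11, another form that does not bind calcium, was the steadiest member, at 996.3 ± 31.7, 980.3 ± 52.4 and 930.7 ± 51 CPM in rTg4510+3TC, rTg4510 and littermates, and Syt4 had 157.7 ± 18.4, 150.3 ± 41.1 and 136.7 ± 13.9 CPM.

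The complexins, which bind the assembled SNARE complex, had negative log2 fold changes against littermates. Cplx1 had 960.8, 719, 832.6 and 706.3 CPM in rTg4510+3TC, 709.2, 715.8, 590.7 and 703.5 CPM in rTg4510, and 808.1, 741.9, 1002 and 785.9 CPM in littermates. All 4 rTg4510 libraries lay under all 4 littermates, by as little as 715.8 against 741.9 CPM, and Cplx1 was the member of the 34 without overlap in this comparison, beside 3.89% of all genes. The log2 fold change was -0.30 ± 0.12 (SE; adjusted p = 0.945, edgeR), and -0.222 without the 3 libraries. In rTg4510+3TC against rTg4510 it was 0.24 ± 0.12 (SE; adjusted p = 1, edgeR), with overlap. Between rTg4510+3TC and littermates the change of Cplx1 was small, at -0.05 ± 0.12 (SE; adjusted p = 0.937, edgeR). Cplx2, the form that prevails in excitatory forebrain neurons, had 1220, 1930, 1858 and 1733 CPM in rTg4510+3TC, 1981, 1575, 1691 and 1829 CPM in rTg4510, and 2129, 2069, 1809 and 2358 CPM in littermates. Littermate M2 is the library that made these ranges overlap, and the other 3 littermates lay above all 8 transgenic libraries. With both transgenic groups against littermates the log2 fold change was -0.28 ± 0.12 (SE; adjusted p = 0.584, edgeR), and -0.251 without the 3 libraries (adjusted p = 0.0913, edgeR). Markers of dentate granule neurons also had low values in both transgenic groups, summing to 219.7 to 292.4 CPM in rTg4510+3TC, 240.7 to 331.2 CPM in rTg4510 and 320.2 to 507.7 CPM in littermates, and their part in the complexin values was not tested.

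Among the remaining fusion genes, Snap25, the most abundant member per length, had 2642 ± 146 CPM in rTg4510+3TC, 2679 ± 653 in rTg4510 and 2544 ± 183 in littermates (SD, n = 4 each). The wide spread in rTg4510 comes from F3, at 3643 CPM, where the other 3 had 2197 to 2465 CPM. Vamp2 averaged 1396 ± 143, 1432 ± 114 and 1396 ± 61.4 CPM in rTg4510+3TC, rTg4510 and littermates. The ratio of Vamp1 to Vamp2 was 0.3194 in rTg4510+3TC F2 and 0.1629 in littermate M2, against 0.0624 to 0.09339 in the other 10 libraries. Napb, the brain form of the SNAP adaptor that brings the ATPase NSF to spent SNARE complexes, had 551.8, 597.5, 654.4 and 598.7 CPM in rTg4510+3TC, 606.3, 567.8, 538.7 and 575 CPM in rTg4510, and 535.8, 508, 394.4 and 575.6 CPM in littermates. The ranges overlapped in each pair of groups, and littermate M2 was the lowest library. Its log2 fold change was 0.25 ± 0.105 (SE) between rTg4510+3TC and littermates (adjusted p = 0.529, edgeR), and 0.192 without the 3 libraries. Nsf itself averaged 1221 ± 32.8, 1115 ± 133 and 1105 ± 208 CPM.

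Of the 8 vesicle membrane proteins, 7 had a positive log2 fold change between rTg4510 and littermates and 6 between rTg4510+3TC and littermates, with medians of 0.126 and 0.0614. Without the 3 libraries it was 5 and 6, with medians of 0.0221 and 0.0845. Syngr3, a synaptogyrin that binds tau on vesicles, had 148.9, 127.9, 148.4 and 162.4 CPM in rTg4510+3TC, 133.5, 150.4, 143.8 and 159.2 CPM in rTg4510, and 123.8, 117.4, 141.7 and 137.6 CPM in littermates. The transgenic and littermate libraries overlapped, with a log2 fold change of 0.17 ± 0.08 (SE) for both transgenic groups together (adjusted p = 0.619, edgeR). Sv2a, the vesicle protein bound by levetiracetam, had 687.7, 510.1, 562 and 521.4 CPM in rTg4510+3TC, 524.4, 568.5, 476.6 and 524.1 CPM in rTg4510, and 485.4, 464, 507.2 and 520.2 CPM in littermates. Its highest value was again in rTg4510+3TC F2, and its log2 fold change between rTg4510+3TC and littermates was 0.21 ± 0.10 (SE; adjusted p = 0.59, edgeR), or 0.116 without the 3 libraries. Sv2b, the form of glutamatergic neurons, averaged 414 ± 90.6, 447.4 ± 63.3 and 386.7 ± 72.8 CPM in rTg4510+3TC, rTg4510 and littermates, and the scarce Sv2c 18.05 ± 5.41, 20.73 ± 5.84 and 17.27 ± 1.64 CPM (SD, n = 4 each).

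Synaptophysin, the usual histological marker of terminals, is encoded by Syp, which averaged 1501 ± 104 CPM in rTg4510+3TC, 1493 ± 60.3 in rTg4510 and 1441 ± 72.7 in littermates (SD, n = 4 each). Those means differ by less than the SD within groups. Its relative Synpr, abundant in mossy fibre terminals, averaged 72.89 ± 18.2, 89.9 ± 26.9 and 79.93 ± 20.8 CPM, with 129.2 CPM in rTg4510 F3 and 46.6 CPM in rTg4510+3TC F2 as its extremes. Syngr1 averaged 544.9 ± 17.8, 544.8 ± 73.1 and 531.5 ± 60.3 CPM.

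The synapsins, which tether vesicles to each other and to actin, and Rab3a, the vesicle GTPase that RIM binds, all had positive log2 fold changes between rTg4510 and littermates, from 0.0256 to 0.107, and between rTg4510+3TC and littermates, from 0.00959 to 0.14. Without the 3 libraries 2 of 4 were positive in rTg4510 and 3 of 4 in rTg4510+3TC. Syn1 averaged 1017 ± 82.1 CPM in rTg4510+3TC, 1054 ± 160 CPM in rTg4510 and 1011 ± 89 CPM in littermates, Syn2 710.3 ± 87.3, 720.2 ± 66.8 and 668.9 ± 143 CPM, and Rab3a 685.2 ± 27.6, 667.2 ± 52 and 655.4 ± 28 CPM (SD, n = 4 each). Syn3, known from developing neurons, averaged 44.52 ± 12.5, 42.88 ± 3.59 and 40.46 ± 9.25 CPM. Since 14.1% of its exon bases are shared with Timp3 on the other strand, reads of the 2 genes cannot be told apart there unless strand was used in counting.

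All 5 active zone genes had negative log2 fold changes between rTg4510+3TC and rTg4510, with a median of -0.171, and without the 3 libraries 4 of 5 were negative with a median of -0.00874. Unc13a encodes Munc13-1, which primes vesicles for fusion. It had 348.8, 527.9, 459.5 and 419.3 CPM in rTg4510+3TC, 512.7, 596.5, 455.4 and 446.9 CPM in rTg4510, and 424, 430.8, 407.7 and 454.6 CPM in littermates. The highest library was rTg4510 F3, followed by rTg4510+3TC F3 and rTg4510 F2, and the lowest was rTg4510+3TC F2, with overlap between all groups. The log2 fold changes of Unc13a were -0.20 ± 0.12 between rTg4510+3TC and rTg4510 and 0.23 ± 0.12 between rTg4510 and littermates (SE; adjusted p = 1 and 0.965, edgeR), and -0.00874 and 0.112 in the same order without the 3 libraries. Rims1, which encodes the scaffold RIM1, had 138.2, 188.7, 183.7 and 196.7 CPM in rTg4510+3TC, 172.2, 283.5, 172.7 and 187.7 CPM in rTg4510, and 196.3, 178.8, 267.2 and 245.3 CPM in littermates. Its change between rTg4510+3TC and littermates was -0.33 ± 0.18 (SE; adjusted p = 0.644, edgeR), and -0.125 without the 3 libraries. The giant scaffolds Bsn and Pclo averaged 640.4 ± 124 and 325.7 ± 15.6 CPM in rTg4510+3TC, 720.8 ± 46.1 and 342.5 ± 32.6 CPM in rTg4510, and 675.3 ± 100 and 308.8 ± 49.9 CPM in littermates, and Rims2 averaged 106 ± 11.2, 116 ± 29.9 and 115.9 ± 20.2 CPM.

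Amphiphysin, encoded by Amph, curves membrane during vesicle retrieval. It had 274.4, 339.2, 325.5 and 323.6 CPM in rTg4510+3TC, 349.1, 276.4, 314.2 and 324.2 CPM in rTg4510, and 282.9, 266.8, 207.7 and 311.8 CPM in littermates. In both transgenic groups 3 of 4 libraries lay above all 4 littermates, and rTg4510+3TC F2 and rTg4510 F3 lay among them. The log2 fold change for both transgenic groups together was 0.24 ± 0.10 (SE; adjusted p = 0.594, edgeR), and 0.197 without the 3 libraries. Snap91, the neuronal clathrin assembly protein AP180, averaged 497.2 ± 29.8 CPM in rTg4510+3TC, 486.7 ± 19.8 in rTg4510 and 457.3 ± 43.2 in littermates (SD, n = 4 each).

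Per length of exon, the list spanned a wide range of levels. Snap25 (386 ± 54.1 RPKM; mean ± SD over the 12 libraries), Cplx2 (375.1 ± 58.7), Vamp2 (369.7 ± 26.9), Cplx1 (353.1 ± 52.7) and Slc17a7 (319.1 ± 55.2) led, followed by Syn1, Rab3a and Syp between 311.4 and 283.7 RPKM. Neighbours among these 8, other than Rab3a and Syp, differed by less than their SD. Syt11 and Syt1 came next, at 186.2 ± 9.77 and 180 ± 21.5 RPKM. At the low end stood Synpr (8.571 RPKM), Syt12 (5.392), Syn3 (3.47), Syt2 (2.899) and Sv2c (1.926). Lengths are those of all annotated exons, which can exceed the transcript a gene uses, as for the giant Pclo at 14.5 RPKM.

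Other genes of vesicle release, docking, filling and retrieval were taken from a further list, of which 63 genes were in the table and tested. Of these, 0 were called in any comparison by edgeR, while DESeq2 called 1 against littermates in rTg4510 and in both transgenic groups, and limma-voom 1 in both transgenic groups. By sign there were 34 positive and 29 negative between rTg4510 and littermates, 31 and 32 between rTg4510+3TC and rTg4510, and 36 and 27 between rTg4510+3TC and littermates. At an unadjusted p under 0.05 stood 8, 0 and 4 of them (12.7%, 0% and 6.35%), beside 5.24%, 3.82% and 8.59% of all tested genes. With both transgenic groups against littermates it was 8 (12.7%), beside 8% of all tested genes. In that last comparison 4 of 63 (6.35%) had transgenic and littermate libraries that did not overlap, beside 1.31% of all genes, where none of the 34 did. Vamp4, a SNARE of endosomes that also serves bulk retrieval and asynchronous release, had 55.4, 51.08, 54.15 and 50.79 CPM in rTg4510+3TC, 56.2, 56.14, 58 and 54.36 CPM in rTg4510, and 44.99, 44.87, 48.65 and 40.18 CPM in littermates. All 8 transgenic libraries lay above all 4 littermates, and those of rTg4510 above those of rTg4510+3TC but for F2 at 55.4 CPM. The log2 fold change was 0.29 ± 0.06 (SE) for both transgenic groups against littermates (adjusted p = 0.225, edgeR, 0.0111 with DESeq2 and 0.0389 with limma-voom). Between rTg4510 and littermates it was 0.33 ± 0.07 (adjusted p = 0.46, edgeR, and 0.0264 with DESeq2), and without the 3 libraries 0.374.

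Ppfia4, a liprin of the active zone, had 119.7, 108.7, 116.7 and 117.5 CPM in rTg4510+3TC, 119.2, 72.21, 89.68 and 113.7 CPM in rTg4510, and 139.7, 137.8, 129.9 and 153.1 CPM in littermates. All 8 transgenic libraries lay under all 4 littermates, and the log2 fold change was -0.39 ± 0.11 (SE; adjusted p = 0.418, edgeR, 0.124 with DESeq2 and 0.0657 in edgeR without the 3 libraries). Cadps, which encodes the priming factor CAPS1 of dense-core vesicles, had 349.6, 313.7, 328.1 and 293 CPM in rTg4510+3TC, 305.4, 290.8, 296.7 and 323 CPM in rTg4510, and 279.6, 266.8, 231.9 and 289.9 CPM in littermates, again without overlap. Its log2 fold change was 0.23 ± 0.07 (SE; adjusted p = 0.507, edgeR). Dnm3, a dynamin, was without overlap too, and its high value of 331.8 CPM belonged to rTg4510+3TC F2, against 160.5 to 224.2 CPM in the other 7 transgenic libraries and 129.3 to 154.5 CPM in littermates. Its change between rTg4510+3TC and littermates was 0.53 ± 0.20 (SE; adjusted p = 0.507, edgeR), and 0.165 without the 3 libraries. In rTg4510+3TC against rTg4510 the smallest p-values of this list were those of Rab27b, a secretory GTPase, at 0.22 ± 0.11, Slc17a6 at 1.68 ± 0.83 and Itsn1, an endocytic scaffold, at 0.16 ± 0.08 (SE; adjusted p = 1, edgeR), and Slc17a6 was at -0.356 without rTg4510+3TC F2. Itsn1 was at 0.0674 without the 3 libraries.

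Doc2b, a high-affinity calcium sensor of spontaneous release, was called against littermates by edgeR, among the settings tried, only in the fit without the 3 libraries with neighbouring-tissue markers, and is named for that after its values were seen. It had 63.88, 48.57, 56.09 and 42.58 CPM in rTg4510+3TC, 54.53, 15.67, 61.07 and 50.8 CPM in rTg4510, and 91.82, 135.9, 42.75 and 86.06 CPM in littermates. Littermate M2 lay among the transgenic libraries, the other 3 littermates lay above all 8 of these, and rTg4510 F3 was the lowest. With all 12 libraries the log2 fold changes against littermates were -0.755 ± 0.37 in rTg4510+3TC and -0.97 ± 0.37 in rTg4510 (SE; adjusted p = 0.608 and 0.945, edgeR). Without the 3 libraries Doc2b fell by 1.09 ± 0.155 on the log2 scale in rTg4510+3TC and by 0.913 ± 0.155 in rTg4510 (SE; adjusted p = 0.00818 and 0.0326, edgeR). In the same 9 libraries its change between rTg4510+3TC and rTg4510 was -0.176 ± 0.155 (SE; adjusted p = 1, edgeR). The part of the dentate granule neuron markers, whose summed levels are given above, was not tested for this gene.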

How the data were processed

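The 12 libraries of polyadenylated hippocampal RNA were deposited by the authors as 1 table of raw read counts, with a row per gene symbol. STAR, DESeq2 and mm10 are named in the submitters' processing notes, without versions or roles. No source used here gives the annotation or says whether strand was used, so a gene that overlaps another on the opposite strand is uncertain. From the 24411 entries, 27 with dates in place of symbols (0.285% to 0.363% of counts) were left out. Chi-square per gene between libraries of the same group was 17.3 to 105, so none was a repeat of another library of its group. Libraries of different groups were not compared in this way, and the values do not show that each library had its own animal.

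Counts were normalised by TMM and filtered by filterByExpr at a minimum count of 10 and a minimum total of 15. The 12 libraries were fitted by group in edgeR 4.0.16 (R 4.3.3), and 3 group contrasts and the mean of both transgenic groups against littermates were tested with the quasi-likelihood test, with Benjamini-Hochberg adjustment over all tested genes. The common dispersion was 0.0817, with 9 residual and 4.01 prior degrees of freedom. SE is the log2 fold change divided by the root of F, and intervals are 95%. In CPM, 3 counts correspond to 0.0519 to 0.11. Counting error is small for every member. RPKM divides CPM by the exon union of GENCODE M21. Per the labels each group holds both sexes. Sex was tried as a term, as labelled and with littermates F3 and M3 exchanged. Other alternatives were DESeq2 1.42.0, limma 3.58.1 (voom with quality weights), other scaling and filters, a replicate block, the libraries of a comparison alone, and leaving out libraries singly or in 2 sets of 3.

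Fold changes printed are drawn from the 8 members and the 3 other presynaptic genes with the smallest p in each comparison. Dnm3, among the genes without overlap, Doc2b and the change of Cplx1 between rTg4510+3TC and littermates were added after their values were seen. Members, lists, markers and the libraries left out were chosen with earlier results of these data known. Vamp7 of the other list was not analysed here. The procedure was tested on simulated data. Promoter windows come from RefSeq (GRCm38.p6), by symbol.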

Additional observations from a re-analysis of the deposited data

Results flagged for a closer look

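In 102 sets of 4 libraries (34 members in 3 groups), 9 had a library whose gap to the nearest of the others passed the 95% critical value of Dixon's ratio (gap over whole range, log2 scale). Chance alone gives about 1 such set in 20. Of the 9, 6 were in rTg4510+3TC F2, the library with high thalamic markers. There Vamp1 had 383.5 CPM (93.44 to 116.2 CPM in the other 3 of its group), Syt2 80.19 CPM (11.73 to 13.72) and Rab3a 726.3 CPM (668.3 to 674.6). In the same library Slc17a7 had 879.9 CPM (1724 to 1835 in the other 3), Syn2 579.4 CPM (751.1 to 755.3) and Syt5 111.4 CPM (154.7 to 165.1). In rTg4510 F3 Stx1a had 416.4 CPM, against 140.9 to 162.1 CPM in the other 3 of its group, and in littermate M2 Vamp1 had 219.6 CPM, against 113.3 to 126.3 CPM. In rTg4510 M1, the library highest in the choroid plexus transcript Ttr (3907 CPM), Cplx1 had 590.7 CPM, against 703.5 to 715.8 CPM. The part of neighbouring tissue in these values was not tested.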

How the results depend on the processing

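In 23 other settings, 12 of which left out 1 library, the count of members called was 0 in each comparison. The members' median log2 fold change moved by less than 0.0893, the SD of the members' mean within groups. That SD is larger than each median of the main fit, so the sign of a median could change within it. Between rTg4510 and littermates the median went from 0.0793 to -0.00173 without rTg4510 F3 and to 0.119 without rTg4510 M1. Between rTg4510+3TC and rTg4510 it went from -0.0287 to 0.042 without the 3 libraries and to -0.0828 without rTg4510 M1. For the named genes 1056 values kept their sign and their side of the threshold, 6 changed sign and 6 came to pass the threshold. None of these genes passed in the main fit, so staying on that side says little about how firm the values are. Between rTg4510+3TC and rTg4510, without the 3 libraries with neighbouring-tissue markers, Vamp1 was at -0.0184, Syt2 at -0.0745 and Slc17a6 at -0.347. Without single libraries Vamp1 ran from -0.126 to 0.792, Syt2 from -0.355 to 1.12 and Slc17a6 from -0.356 to 2.02, the lowest each time without rTg4510+3TC F2. Vamp4 passed against littermates with DESeq2 (adjusted p = 0.0264 for rTg4510 and 0.0111 for both transgenic groups) and with limma-voom for both groups (adjusted p = 0.0389). Without the 3 libraries Doc2b passed in each comparison with littermates (adjusted p = 0.00238 to 0.0326, edgeR). The cause of these differences between settings was not tested. All genes called in edgeR (5 for rTg4510 against littermates, 0 for rTg4510+3TC against rTg4510, 8 for rTg4510+3TC against littermates and 8 for both transgenic groups) became 23, 1, 109 and 89 with DESeq2 and 15, 0, 38 and 63 with limma-voom. They became 36, 0, 71 and 108 when rTg4510+3TC F2, rTg4510 F3 and littermate M2 were left out, and 0 in each without the 3 highest in Ttr.

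With the replicate number as a block, 0 members and 0 genes were called in each comparison, and the members' medians were 0.125, -0.0807, 0.0213 and 0.0759 in the same order. Deviations of libraries with the same number correlated at -0.254 to 0.17. Libraries with different numbers were not correlated for comparison, so these values cannot decide whether a shared number marks a pairing.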

Other observations

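Ratios between related genes within a library, which do not depend on scaling, set some or all of the same 3 libraries apart, depending on the ratio. Syt2 to Syt1 was 0.06849 in rTg4510+3TC F2 and 0.02414 in littermate M2, against 0.005644 to 0.01379 in the other 10. Sv2a to Sv2b was 2.446 in rTg4510+3TC F2 and 1.689 in littermate M2, against 1.061 to 1.264. Cplx1 to Cplx2 was 0.7878 in rTg4510+3TC F2 and 0.5537 in littermate M2, against 0.3334 to 0.4546 in the other 10. There rTg4510 F3, at 0.4546, was close to rTg4510+3TC M2, at 0.4482. Stx1a to Snap25 was 0.03068 in rTg4510+3TC F2, 0.1143 in rTg4510 F3 and 0.1183 in littermate M2, against 0.0515 to 0.07378. Syn2 to Syn1 was lowest in rTg4510 F3 and littermate M2, at 0.4888 and 0.544, against 0.6203 to 0.7979 in the other 10.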
